A study of Homo sapiens with 27 samples.

Results

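The RNA of 9 genes of the epithelial tight junction was followed in breast cancer cells that carry truncating mutants of the transcription factor GATA3. The genes are the claudins CLDN1, CLDN3, CLDN4 and CLDN7, the membrane proteins OCLN (occludin) and F11R (junctional adhesion molecule A), and the plaque proteins TJP1, TJP3 and CGN (cingulin). They were taken by gene name from a table of 26485 genes, and all 9 passed the filter on low counts that left 14789 genes for testing. RNA-seq was carried out on 12 libraries of T47D cells, an established luminal breast cancer line, with 3 libraries for each of 4 lines. The control line had been infected with the empty pHAGE vector, and the Splice del, C321fs and A333fs lines carried that lentiviral vector with the named GATA3 mutant and a Ty-1 tag. Splice del loses the wild-type sequence of the second zinc finger, whereas the frameshift mutants C321fs and A333fs lack part of it. Every line was selected with puromycin as 1 pool of cells, and every line kept its own wild-type GATA3, so each mutant was measured beside the wild-type protein. The study calls these replicates biological, but nothing in the sample descriptions says that the 3 libraries of a line came from separate cultures, so the p-values measure the spread among these libraries, which may be technical.

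Tight junctions seal the space between neighbouring epithelial cells near their apical side and separate the apical from the basolateral membrane. Claudins form the paracellular barrier and set which ions pass it, occludin and junctional adhesion molecules are further membrane components, and the zonula occludens proteins and cingulin link the membrane strands to the actin cytoskeleton. In the mammary gland these junctions keep milk in the lumen, and claudin expression is one of the features by which breast tumours are grouped.

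The libraries held 27872208 to 36788024 counted fragments each. Levels are given as CPM, the library-size scaled count after trimmed mean of M-values (TMM) scaling, and as FPKM, the same divided by exon length, where genes are compared with each other. Differences between lines were tested with edgeR's quasi-likelihood test in 1 fit of all 12 libraries, with Benjamini-Hochberg adjustment over the 14789 tested genes, and every adjusted p below is from that test unless said otherwise. A gene was called where the adjusted p was below 0.01 and the fold change over 1.5. Values after ± are SD over 3 libraries for a level and the standard error (SE) for a fold change. In bulk RNA, fewer cells with a transcript and less transcript per cell cannot be told apart.

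All 7 luminal epithelial markers were expressed in every line. Their summed level was 15891 to 19075 CPM in control, 11757 to 12904 in A333fs, 10021 to 10818 in Splice del and 10614 to 11482 in C321fs, so it was lower in each mutant line than in control. The keratins KRT8, KRT18 and KRT19 made up most of this sum, and not every luminal marker was lower: EPCAM was higher by 0.37 on the log2 scale in A333fs (adjusted p = 3.27e-05), 0.42 in Splice del (adjusted p = 1.38e-05) and 0.37 in C321fs (adjusted p = 7.06e-05), each under the fold limit. Of the markers of other cell types, KRT5 had at most 3 counts in every library, as did the fibroblast genes COL1A2, PDGFRA, PDGFRB and FAP, the endothelial genes PECAM1, VWF and CDH5, and the leukocyte genes PTPRC and CD3E. The remaining ones were not all near 0 or level. CD68, the other leukocyte marker, had 83 to 149 counts in control and was not called in any mutant line (adjusted p at least 0.189). COL1A1 had 1420 to 1866 counts in control and was called lower in A333fs (-0.83; adjusted p = 2.01e-06), and COL3A1 was called lower in A333fs (-1.65), Splice del (-1.09) and C321fs (-1.03; adjusted p at most 2.21e-05). ACTA2 was called higher in A333fs (0.62, adjusted p = 7.82e-05). TP63 was called higher in C321fs at 23 or 24 counts against 7 to 11 in control (1.34, adjusted p = 0.00827). KRT14 had 16 to 21 counts in A333fs against 0 or 1 in control. It passed the filter on low counts only through A333fs, where it was high, so its call there is not taken as a test result. With the trend over GC content and exon length removed, as given below, the calls of COL1A1 (-0.45) and TP63 (1.18, adjusted p = 0.0208) were lost. The 6 basal or myoepithelial markers summed to 15.7 to 17.5 CPM in control, 22.6 to 25.3 in A333fs, 14.5 to 17.2 in Splice del and 17.05 to 21.4 in C321fs. The 6 fibroblast markers summed to 53.2 to 64.9 CPM in control, 29.6 to 33.4 in A333fs, 44.9 to 50.7 in Splice del and 40.7 to 49.7 in C321fs. Their part in the results was not tested. GATA3 itself, counted from wild-type and mutant transcripts together, was at 1281 ± 50.8 CPM in control, 1016 ± 11.03 in A333fs, 1001 ± 45.0 in Splice del and 1142 ± 12.5 in C321fs, which does not separate the transcripts.

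Per length, the junction RNA of control cells was dominated by CLDN3 at 342 ± 33.9 FPKM and CLDN4 at 323 ± 26.8 FPKM. Both are claudins of the mammary luminal epithelium, and their levels overlapped among the control libraries. CLDN7 followed at 104 ± 10.8 FPKM, F11R at 68.2 ± 5.32, TJP3 at 56.5 ± 3.89, CLDN1 at 44.5 ± 2.89 and CGN at 24.6 ± 0.842. TJP1 at 4.40 ± 0.0342 FPKM and OCLN at 3.83 ± 0.259 FPKM were the least abundant per length. With the exception of CLDN3 and CLDN4, the libraries of neighbours in this order did not overlap. The order of the means was not the same in every line. CLDN1 at 13.4 ± 0.434 FPKM was below CGN at 18.4 ± 1.74 in C321fs, CLDN4 was above CLDN3 in Splice del (318 against 301) and A333fs (275 against 268), and OCLN was above TJP1 in Splice del (3.92 against 3.86) and C321fs (4.42 against 3.599). The libraries of CLDN3 and CLDN4 overlapped in both of those lines, as did those of OCLN and TJP1 in Splice del.

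CLDN1, a claudin needed for a tight epithelial barrier, was the member that differed most among the lines. Its level was 147, 149 and 165 CPM in the control libraries, 137, 137 and 139 in A333fs, 75.9, 74.5 and 74.7 in Splice del, and 45.0, 47.9 and 46.1 in C321fs. The libraries of the 4 lines did not overlap, and the order from high to low was control, A333fs, Splice del and C321fs. CLDN1 was 2.05-fold lower in Splice del than in control (log2 fold change -1.03 ± 0.05, SE; adjusted p = 1.54e-09) and 3.32-fold lower in C321fs (-1.73 ± 0.06; adjusted p = 1.04e-11). In A333fs it was 1.11-fold lower (-0.16 ± 0.05), and the adjusted p of 0.0183 did not pass the limit. All 3 pairs of mutant lines differed: CLDN1 was 1.62-fold higher in Splice del than in C321fs (log2 0.70; adjusted p = 2.85e-07), 2.97-fold higher in A333fs than in C321fs (1.57; adjusted p = 1.45e-11) and 1.84-fold higher in A333fs than in Splice del (0.88; adjusted p = 4.23e-08). The control and A333fs levels are therefore the only neighbours in the order whose difference was not called. When the fold change itself was tested against 1.5, the difference between Splice del and C321fs was no longer called (adjusted p = 0.501), while those of Splice del and of C321fs against control were.

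**Figure D1:**
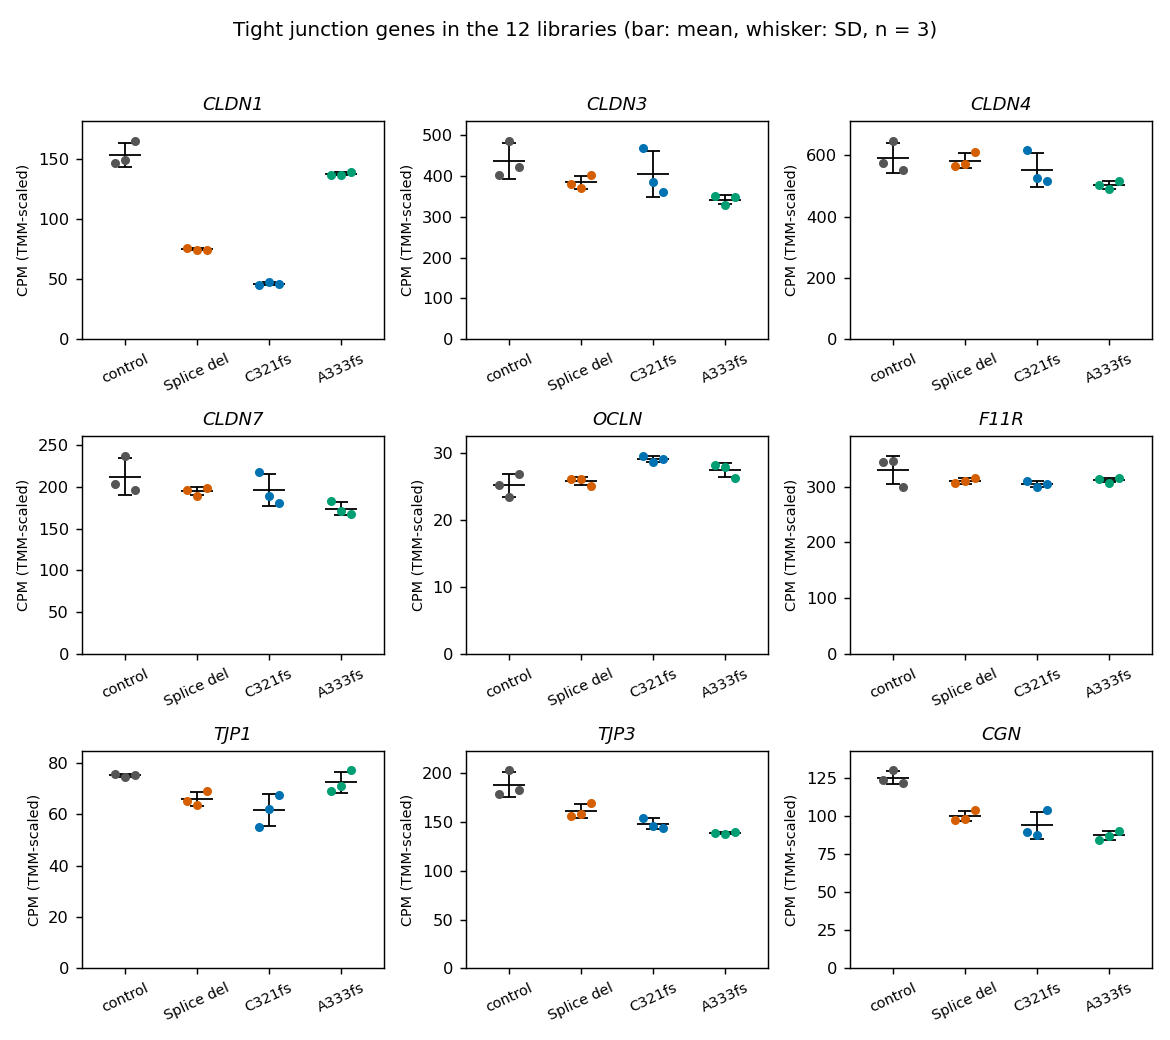
TMM-scaled CPM (vertical axis, starting at 0) of the 9 genes in control, Splice del, C321fs and A333fs. Points are libraries, bars the mean and whiskers the SD of 3 libraries. CLDN1 fell from 154 CPM in control to 75.0 in Splice del and 46.3 in C321fs, while the other panels show smaller differences.

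The other claudins of the set did not follow CLDN1. CLDN3 was at 403, 485 and 421 CPM in control, 350, 328 and 348 in A333fs, 381, 370 and 401 in Splice del, and 469, 386 and 360 in C321fs. The C321fs libraries overlapped those of control, and the A333fs and Splice del libraries lay below them, the latter by a narrow margin. The log2 fold changes of CLDN3 against control were -0.35 ± 0.09 in A333fs (adjusted p = 0.00228), -0.18 ± 0.09 in Splice del (adjusted p = 0.0812) and -0.11 ± 0.09 in C321fs (adjusted p = 0.305), all under the fold limit. CLDN4, a claudin that limits sodium passage, was at 591 ± 49.0 CPM in control, 503 ± 12.2 in A333fs, 582 ± 24.4 in Splice del and 553 ± 56.1 in C321fs, and none of its 3 differences from control passed the limits (adjusted p = 0.0111 in A333fs, 0.819 in Splice del and 0.276 in C321fs). CLDN7, a claudin that also occurs along the lateral membrane, was at 212 ± 22.1 CPM in control, 174 ± 7.84 in A333fs, 195 ± 4.86 in Splice del and 196 ± 19.4 in C321fs. Its change in A333fs was -0.29 ± 0.08 on the log2 scale (adjusted p = 0.00417, under the fold limit), and 38 exon bases of CLDN7 overlap those of ELP5, which this counting without strand cannot separate. CLDN3, CLDN4 and CLDN7 varied together over the 12 libraries. The Pearson correlation of log2 CPM was 0.95 for CLDN3 and CLDN7, 0.91 for CLDN4 and CLDN7, and 0.89 for CLDN3 and CLDN4, against -0.08 for CLDN1 and CLDN3. These libraries share line, depth and base composition effects, so the correlations are a description.

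The claudin mixture differed among the lines mainly in CLDN1. Of the summed FPKM of 24 claudin genes, CLDN1 made up 5.40 ± 0.643% in control, 5.84 ± 0.136% in A333fs, 2.89 ± 0.111% in Splice del and 1.82 ± 0.235% in C321fs. The CLDN1 share in A333fs, 5.72 to 5.99%, lay within the control range of 4.75 to 6.04%, while the Splice del and C321fs shares lay below it. CLDN3 took 39.3 to 42.5% and CLDN4 38.9 to 42.2% of the sum as line means, and CLDN7 took 12.5 to 12.9%. The CLDN4 share in Splice del, 41.5 to 42.5%, lay above the control range of 38.2 to 39.8%. In points of share, the mean of CLDN4 moved more from control to Splice del than that of CLDN1 did. The FPKM ratio of CLDN1 to CLDN4, which does not depend on the scaling between libraries, was 0.139 ± 0.0182 in control, 0.145 ± 0.00255 in A333fs, 0.0684 ± 0.00323 in Splice del and 0.0448 ± 0.00536 in C321fs. Shares and ratio were not corrected for the trend over GC content given below, and exon GC content was 41.28% in CLDN1 and 60.51% in CLDN4. With that trend removed, the log2 fold changes in A333fs against control were -0.47 for CLDN1, 0.15 for CLDN3 and 0.09 for CLDN4. The likeness of A333fs to control in the CLDN1 share therefore depends on the trend.

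**Figure D2:**
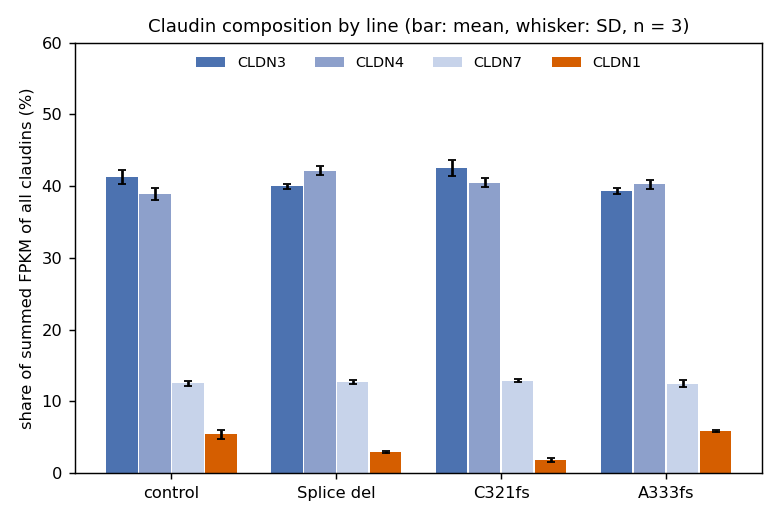
Share of each claudin in the summed FPKM of 24 claudin genes (vertical axis, percent) for the 4 lines. Bars are the mean and whiskers the SD of 3 libraries. The CLDN1 bar stands at 5.40% in control and 5.84% in A333fs but at 2.89% in Splice del and 1.82% in C321fs, while the CLDN3 and CLDN4 bars stay near 40%. The shares are not corrected for the trend over GC content.

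The promoters of these 4 claudins are printed because CLDN1 differed among the lines and CLDN3, CLDN4 and CLDN7 varied together. They come from RefSeq (GRCh38.p14), run 5′ to 3′ from 250 bases before to 50 bases after the transcription start nearest to the gene start in the count table, and capitals mark GATA, the core letters of the sequence bound by GATA factors, AGAT, which shares 3 of them, and CAGGTG, an E-box, on either strand. CLDN1 lies at chr3:190305701-190322446 on the minus strand, and its promoter window at chr3:190322397-190322696. CLDN3 at chr7:73768997-73770270 (minus strand; window chr7:73770221-73770520) and CLDN4 at chr7:73830863-73832693 (plus strand; window chr7:73830746-73831045) are close neighbours, and CLDN7 lies at chr17:7259903-7263193 (minus strand; window chr17:7263164-7263463).
CLDN1: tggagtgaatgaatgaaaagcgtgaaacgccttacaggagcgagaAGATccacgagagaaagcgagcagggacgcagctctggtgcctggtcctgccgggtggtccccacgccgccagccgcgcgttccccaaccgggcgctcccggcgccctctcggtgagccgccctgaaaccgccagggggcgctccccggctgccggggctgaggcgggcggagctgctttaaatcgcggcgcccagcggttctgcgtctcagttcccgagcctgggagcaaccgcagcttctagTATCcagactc
CLDN3: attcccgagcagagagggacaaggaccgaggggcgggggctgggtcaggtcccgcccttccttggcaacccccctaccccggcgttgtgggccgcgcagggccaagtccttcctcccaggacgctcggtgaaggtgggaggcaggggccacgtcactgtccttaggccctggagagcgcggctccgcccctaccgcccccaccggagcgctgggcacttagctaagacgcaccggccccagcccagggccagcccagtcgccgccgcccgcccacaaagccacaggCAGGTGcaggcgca
CLDN4: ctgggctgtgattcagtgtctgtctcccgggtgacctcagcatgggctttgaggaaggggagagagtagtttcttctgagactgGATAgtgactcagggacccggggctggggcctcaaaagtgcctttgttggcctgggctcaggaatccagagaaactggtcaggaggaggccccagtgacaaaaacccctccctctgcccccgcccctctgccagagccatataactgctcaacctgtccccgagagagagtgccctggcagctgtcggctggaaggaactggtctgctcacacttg
CLDN7: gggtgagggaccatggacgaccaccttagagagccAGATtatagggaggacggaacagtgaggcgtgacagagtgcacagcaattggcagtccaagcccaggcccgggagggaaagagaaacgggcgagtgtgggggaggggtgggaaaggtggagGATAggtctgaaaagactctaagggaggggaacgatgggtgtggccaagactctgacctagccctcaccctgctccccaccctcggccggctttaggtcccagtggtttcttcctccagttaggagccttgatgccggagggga
Of the 9 genes, 8 had a promoter in the RefSeq table. None of these 8 windows holds AGATAA or TGATAA on either strand, letters found in 16.3% of 35114 promoters of the same length. GATA alone occurs once each in the CLDN1, CLDN4, CLDN7 and TJP3 windows and in 49.7% of all promoters. AGAT occurs once each in those of CLDN1 and CLDN7 and in 69.9% of all, and AGATAA would count as a match of both. The E-box CAGGTG occurs once each in CLDN3, OCLN and TJP1 and in 20.6% of all. GGGCGG, a GC box, occurs in 7 of the 8 windows, all but that of CLDN7, with 6 matches in CLDN3, 5 in CGN and 2 in CLDN1, and in 45% of all promoters. These are matches of letters in a short window.

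The remaining membrane proteins stayed close to their control levels. OCLN was at 25.2 ± 1.70 CPM in control, 27.5 ± 1.07 in A333fs, 25.8 ± 0.606 in Splice del and 29.1 ± 0.489 in C321fs. It was 0.21 ± 0.06 higher in C321fs on the log2 scale with all 3 libraries above control, but the adjusted p of 0.0121 did not pass the limit, and it was 0.04 in Splice del (adjusted p = 0.654) and 0.13 in A333fs (adjusted p = 0.0973). F11R, which binds its like on the neighbouring cell, was at 330 ± 25.7 CPM in control and 304 to 312 as the means of the mutant lines. Its log2 fold changes of -0.09, -0.11 and -0.08 in Splice del, C321fs and A333fs had adjusted p of 0.194, 0.093 and 0.226. F11R was also the member with the weakest evidence of any difference among the 4 lines (edgeR F-test, adjusted p = 0.261).

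Among the plaque proteins, CGN and TJP3 were lower in all 3 mutant lines, each by less than 1.5-fold. Cingulin, which ties the junction to actomyosin, was at 124, 130 and 122 CPM in control, 84.3, 87.3 and 90.5 in A333fs, 97.8, 98.5 and 104 in Splice del, and 89.7, 87.9 and 104 in C321fs. No mutant library reached the lowest control library. The log2 fold change of CGN was -0.52 ± 0.06 in A333fs (adjusted p = 6.55e-06), -0.32 ± 0.06 in Splice del (adjusted p = 5.08e-04) and -0.42 ± 0.06 in C321fs (adjusted p = 9.86e-05). TJP3, a zonula occludens protein largely restricted to epithelia, was at 188 ± 12.96 CPM in control, 139 ± 1.45 in A333fs, 161 ± 7.13 in Splice del and 148 ± 5.65 in C321fs. Its log2 fold changes were -0.44 in A333fs (adjusted p = 1.09e-05), -0.22 in Splice del (adjusted p = 0.00364) and -0.35 in C321fs (adjusted p = 1.71e-04), each with an SE of 0.06, and 41 of its exon bases overlap those of APBA3. TJP1, the scaffold zonula occludens protein, was at 75.3 ± 0.586 CPM in control, 72.4 ± 4.22 in A333fs, 66.0 ± 2.74 in Splice del and 61.6 ± 6.22 in C321fs. The TJP1 change passed the limit on the adjusted p only in C321fs (-0.29 ± 0.07; adjusted p = 0.00288), with -0.19 in Splice del (adjusted p = 0.0298) and -0.06 in A333fs (adjusted p = 0.512). A difference of TJP1 between mutant lines was not called, the largest being 0.23 on the log2 scale between A333fs and C321fs (adjusted p = 0.0198).

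Counted over the 9 genes, CLDN1 was the 1 member called lower in C321fs and likewise in Splice del, and 0 members were called in A333fs. The share of all tested genes called lower was 6.81% in A333fs, 4.53% in Splice del and 2.26% in C321fs. No member was called higher, against 5.46%, 6.21% and 4.63% of all tested genes in the same order. On the adjusted p alone, 4 members were lower in A333fs (CLDN3, CLDN7, TJP3 and CGN), where 26.4% of all genes were. In Splice del 3 were lower (CLDN1, TJP3 and CGN; background 22.4%), and in C321fs 4 were lower (CLDN1, TJP1, TJP3 and CGN; background 20.7%). With the counts as deposited, no member was higher on that rule, against 21.0% of all genes in A333fs, 18.7% in Splice del and 16.1% in C321fs. The 3 comparisons share the control libraries, so their counts are not independent. Between mutant lines CLDN1 was the 1 member called in each pair. The background was 1.76% higher and 0.879% lower for Splice del against C321fs, 2.47% and 3.08% for A333fs against C321fs, and 1.03% and 1.97% for A333fs against Splice del. In the F-test on the 4 lines, 4 of 9 members differed at an adjusted p below 0.01, namely CLDN1 (3.93e-12), CGN (2.08e-05), TJP3 (3.73e-05) and TJP1 (0.00611), where 56.2% of all tested genes did.

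**Figure D3:**
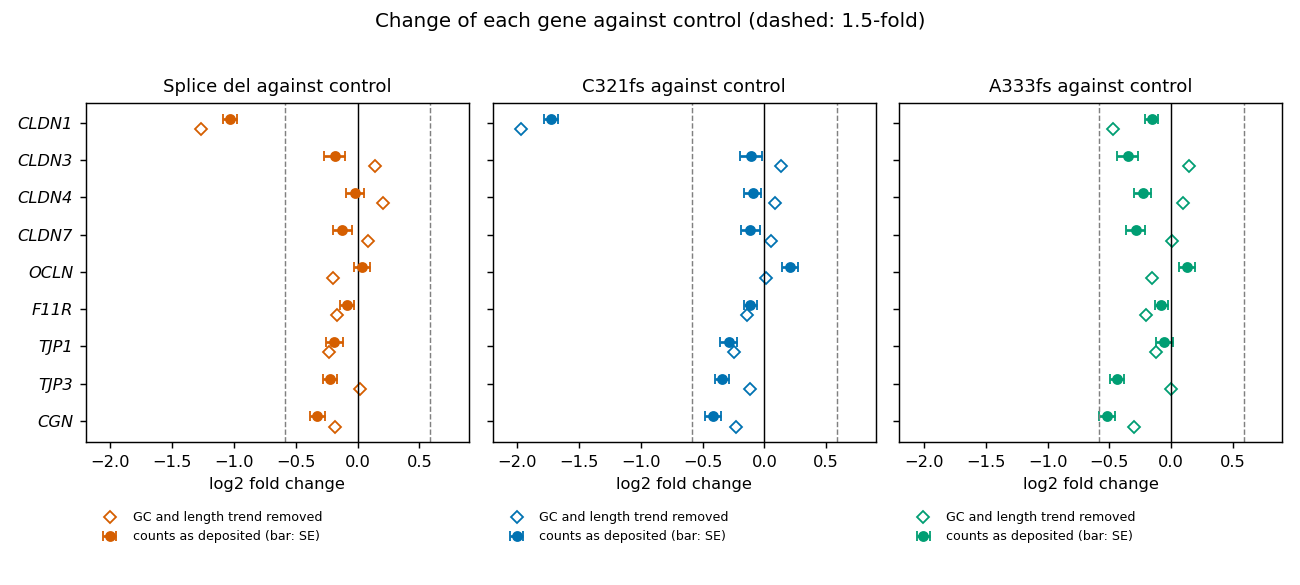
Log2 fold change (horizontal axis) of the 9 genes in Splice del, C321fs and A333fs against control. Filled points are the edgeR estimates with their SE, open diamonds the estimates with the trend over GC content and exon length removed, and dashed lines mark 1.5-fold. CLDN1 lies beyond the dashed line in Splice del (-1.03) and C321fs (-1.73), and no other filled point does.

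The members' median log2 fold change was -0.23 in A333fs, -0.18 in Splice del and -0.12 in C321fs, and that of all tested genes was 0.01, 0.03 and 0.02. With the trend over GC content and exon length removed the members' median was -0.13, -0.17 and -0.12, so it moved mainly in A333fs. Across all tested genes, the change against control fell with the GC content of the exons, with a Spearman correlation of -0.67 in A333fs, -0.51 in Splice del and -0.55 in C321fs. The slope of log2 CPM per 10 points of GC was 0.14 ± 0.04 in control and -0.17 ± 0.04 in A333fs. It was -0.08 ± 0.05 in Splice del, where replicate 3 at -0.02 stood apart from the other two at -0.10 and -0.11, and -0.07 ± 0.07 in C321fs, where replicate 1 stood apart at 0.01 from the other two at -0.11 and -0.12. GC content of the exons was 69.15% in CLDN3, 63.78% in TJP3, 60.51% in CLDN4, 59% in CLDN7 and 56.19% in CGN, but 47.64% in F11R, 45.08% in TJP1, 41.28% in CLDN1 and 40.63% in OCLN. The 4 members that passed the adjusted p limit in A333fs (CLDN3, CLDN7, TJP3 and CGN) are among the 5 with the highest GC content. No batch is given for these libraries, so a technical and a biological origin of the trend cannot be told apart.

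With the trend over GC content and exon length removed from each library, CLDN1 fell further below control. Its log2 fold change became -0.47 in A333fs, -1.27 in Splice del and -1.97 in C321fs, and the change in A333fs then had an adjusted p of 8.92e-08 while staying under 1.5-fold. CGN was at -0.31 in A333fs (adjusted p = 5.68e-05), -0.18 in Splice del and -0.23 in C321fs. TJP3 went to -0.0036 in A333fs, 0.02 in Splice del and -0.12 in C321fs, close to 0 in 2 of the 3 lines. CLDN3 moved from values below 0 to 0.14 in Splice del (adjusted p = 0.0079) and C321fs (adjusted p = 0.0132). In A333fs it moved to 0.15 (adjusted p = 0.00812). CLDN4 moved to 0.21 in Splice del (adjusted p = 3.74e-04) and 0.09 in both other lines. On the adjusted p alone, CLDN3 was then higher in A333fs and Splice del, and CLDN4 in Splice del. In A333fs CLDN3 thus passed that limit in opposite directions with and without the trend. The share of all tested genes on that rule was not computed for this fit. OCLN turned to -0.20 in Splice del and -0.15 in A333fs and was 0.01 in C321fs. TJP1 was at -0.13, -0.23 and -0.25 in A333fs, Splice del and C321fs, and F11R at -0.20, -0.17 and -0.14. CLDN1, CGN, TJP1 and F11R thus had values below 0 in all 3 mutant lines with and without the trend, whereas the sign of CLDN3, CLDN4 and CLDN7 in all 3 lines, of OCLN in Splice del and A333fs and of TJP3 in Splice del depended on it.

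**Figure D4:**
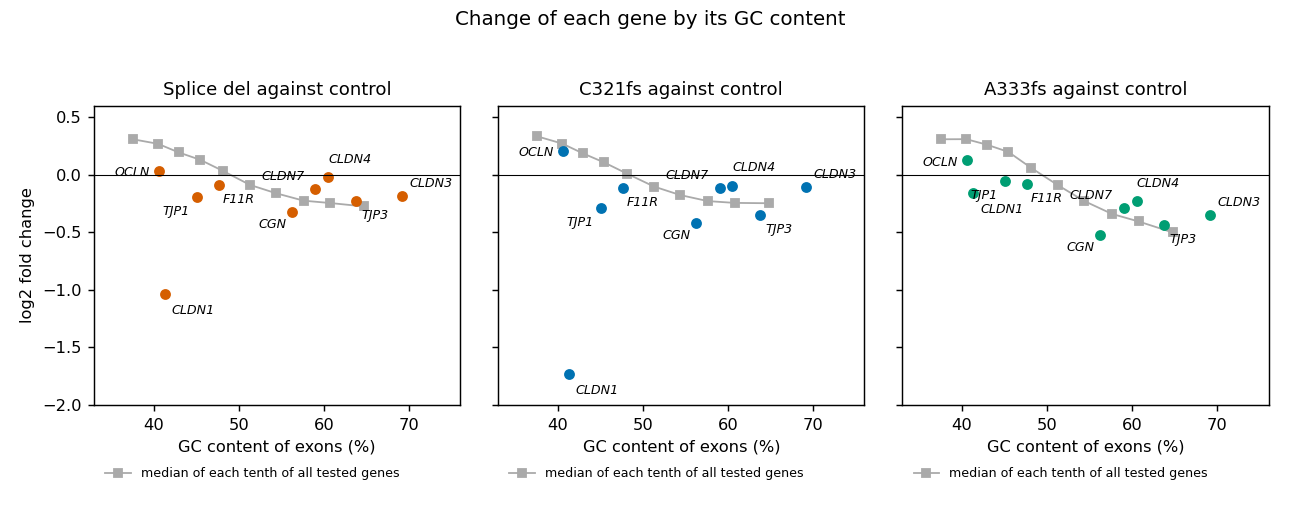
Log2 fold change against control (vertical axis) of the 9 genes by the GC content of their exons (horizontal axis, percent), for Splice del, C321fs and A333fs. Grey squares are the medians of all tested genes in 10 bins of GC content. The grey line falls from 0.31 to -0.50 in A333fs, most members lie near or somewhat below or above it, and CLDN1 lies far below it in Splice del and C321fs.

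Few other claudins were expressed. Of 20 other claudin genes, 6 passed the filter (CLDN5, CLDN8, CLDN9, CLDN12, CLDN15 and CLDN23), and 0, 0 and 2 of them were called lower in Splice del, C321fs and A333fs, with none called higher. Of all tested genes, 4.53%, 2.26% and 6.81% were called lower in the same order, and 6.21%, 4.63% and 5.46% higher. CLDN5, best known from endothelium, was at 2.04, 1.99 and 2.47 CPM in control and 1.19, 0.989 and 1.03 in A333fs, a log2 fold change of -1.01 (adjusted p = 5.81e-04). It was at 2.31, 2.74 and 1.59 in C321fs, which overlapped control, and lower in A333fs than in C321fs by -1.04 (adjusted p = 0.00135). In Splice del the CLDN5 change was -0.54 (adjusted p = 0.0274), within neither limit for a call. CLDN15, a claudin that forms cation pores, was at 9.29 ± 1.21 CPM in control and 6.08 ± 0.581 in A333fs, with -0.61 against control (adjusted p = 5.93e-04) and -0.64 against Splice del (adjusted p = 0.00185). Neither call against control was kept with the GC and length trend removed (CLDN5 -0.51, CLDN15 -0.27), and that of CLDN15 was lost without control replicate 2 (-0.53), A333fs replicate 2 (-0.53) or A333fs replicate 3 (-0.58). The CLDN15 call between A333fs and Splice del was lost with the trend removed (-0.52) and without replicate 1 (-0.61) or 3 (-0.55) of Splice del or replicate 2 (-0.56) or 3 (-0.61) of A333fs, and the CLDN5 call between A333fs and C321fs was lost with these lines fitted alone (adjusted p = 0.0105).

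Of 12 other tight junction membrane proteins 10 passed the filter. In A333fs 1 was called higher and 2 lower, where 5.46% and 6.81% of all tested genes were. In Splice del 1 was called higher and 0 lower (6.21% and 4.53% of all), and likewise in C321fs (4.63% and 2.26%). JAM2, a relative of F11R, was called higher in all 3 mutant lines from low counts. It was at 0.916, 1.22 and 1.22 CPM in control, where it had 27 to 38 counts, 1.84, 1.95 and 2.52 in A333fs, 2.68, 2.63 and 2.61 in Splice del, and 2.13, 1.84 and 1.75 in C321fs. No mutant library overlapped the control libraries. The log2 fold change of JAM2 was 1.24 in Splice del (adjusted p = 2.27e-05), 0.92 in A333fs (adjusted p = 3.73e-04) and 0.77 in C321fs (adjusted p = 0.00246), and the call in C321fs was lost without control replicate 1 (0.65) or C321fs replicate 1 (0.68). In A333fs LSR, the tricellular junction receptor, was just past the fold limit at -0.59 (adjusted p = 5.38e-06) and ESAM, an adhesion molecule of endothelium, was called at -0.67 (adjusted p = 7.62e-05). Both calls were lost with the GC and length trend removed (LSR -0.16, ESAM -0.42) and without control replicate 2 (LSR -0.53, ESAM -0.57). They were also lost under upper-quartile scaling, with library totals alone and when tested against a fold change of 1.5. That of LSR was lost as well without A333fs replicate 2 (-0.53), with RLE scaling (-0.58) and with these lines fitted alone (-0.57). It was further lost with no filter on low counts (-0.57) or with at least 10 counts in every library (-0.58).

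All 18 other plaque proteins passed the filter, and the 3 genes called higher included the largest changes of any gene in the junction lists or among the members. CGNL1 (paracingulin), the close relative of cingulin, was at 0.984, 1.51 and 0.868 CPM in control, 4.13, 4.31 and 5.25 in A333fs, 4.88, 5.02 and 5.89 in Splice del, and 0.944, 1.04 and 1.20 in C321fs. Splice del and A333fs lay above all control and C321fs libraries, which overlapped each other. CGNL1 was 4.64-fold higher in Splice del (log2 2.21; adjusted p = 1.44e-07) and 4.05-fold higher in A333fs (2.02; adjusted p = 3.81e-07) and was at -0.09 in C321fs (adjusted p = 0.769). The difference from C321fs was 2.30 in Splice del (adjusted p = 2.07e-07) and 2.11 in A333fs (adjusted p = 4.04e-07). Per length CGNL1 stayed far below CGN, at 0.717 against 19.6 FPKM in Splice del.

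AMOT (angiomotin), a scaffold that binds YAP at the junction, was at 1.56, 1.64 and 1.15 CPM in control and rose 3.14-fold in Splice del to 4.28, 4.34 and 5.12 (log2 1.65; adjusted p = 9.02e-06). In A333fs it rose 2.17-fold to 2.78, 3.16 and 3.49 (1.11; adjusted p = 3.69e-04). In C321fs the libraries were uneven at 1.31, 2.46 and 2.56, the difference of 0.53 was not called (adjusted p = 0.0672), and without C321fs replicate 1 it was called (0.79). AMOT was also 1.12 higher in Splice del than in C321fs on the log2 scale (adjusted p = 8.29e-04). That call and the one in A333fs were lost when tested against a fold change of 1.5 (adjusted p = 0.129 and 0.0796). AMOTL1, its relative, was at 8.39 ± 0.692 CPM in control and fell by 0.82 on the log2 scale in C321fs to 4.75 ± 0.717 (adjusted p = 4.32e-05), while A333fs at 7.93 ± 0.526 was 0.74 above C321fs (adjusted p = 1.73e-04). Against a fold change of 1.5 neither AMOTL1 difference was called (adjusted p = 0.292 and 0.663). In Splice del AMOTL1 was at -0.51 against control (adjusted p = 0.0011), under the fold limit. MAGI2 was called higher in C321fs (0.59; adjusted p = 0.00633), a call lost without control replicate 1 or 3 and without C321fs replicate 2 or 3, with values of 0.46 to 0.61, and also with RLE scaling (0.58), with these lines fitted alone (0.60) and by DESeq2 (0.58). SYMPK, a protein of the junction plaque and of mRNA processing, was called lower in A333fs (-0.71; adjusted p = 5.04e-07) and was -0.34 once the composition trend was taken out. It was also lower in Splice del (-0.56, adjusted p = 5.07e-06) and C321fs (-0.56, adjusted p = 9.82e-06), each just under the fold limit. With the trend taken out these values were -0.35 and -0.33. In all, 2 plaque genes were called higher and 1 lower in A333fs, 2 and 0 in Splice del, and 1 and 1 in C321fs. The shares of all tested genes called higher and lower were 5.46% and 6.81% in A333fs, 6.21% and 4.53% in Splice del, and 4.63% and 2.26% in C321fs.

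**Figure D5:**
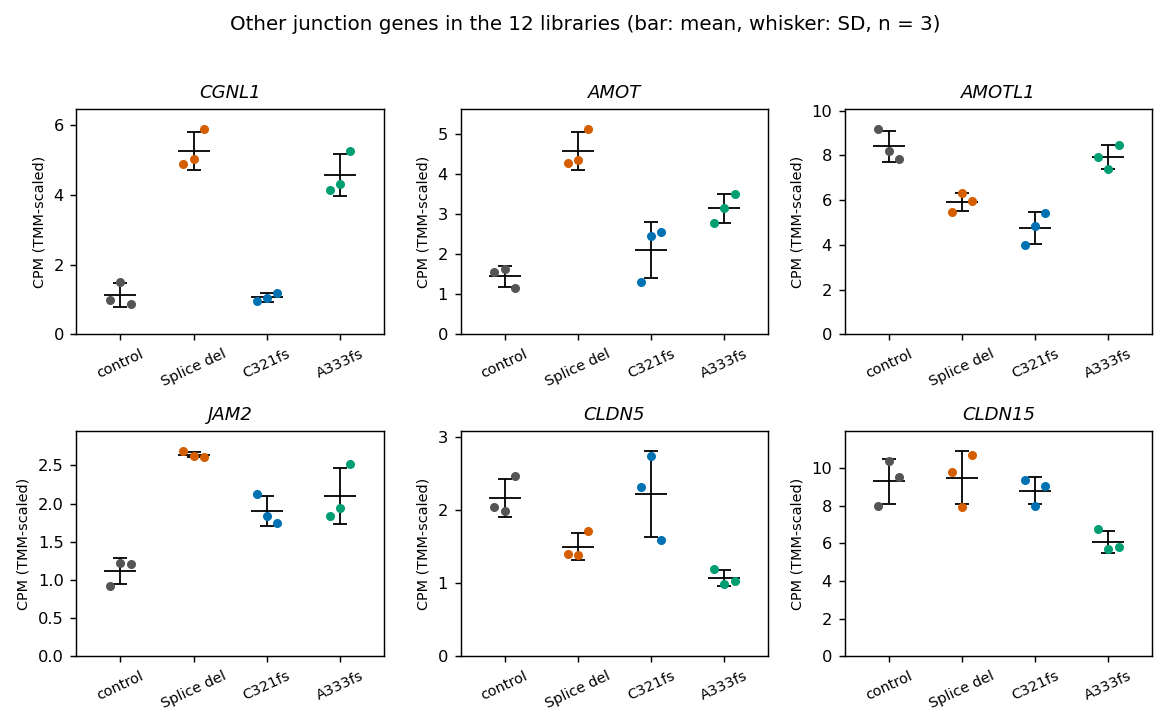
TMM-scaled CPM (vertical axis, starting at 0) of 6 other junction genes whose level differed between mutant lines or rose in all of them. Points are libraries, bars the mean and whiskers the SD of 3 libraries. CGNL1 stands at 5.26 CPM in Splice del and 4.56 in A333fs against 1.12 in control and 1.06 in C321fs.

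The adherens junction lies below the tight junction, and all 10 genes of its list passed the filter. Of these, 0 were called in Splice del, where 6.21% of all tested genes were called higher and 4.53% lower. In C321fs 1 was called higher and 0 lower, where 4.63% and 2.26% of all tested genes were. In A333fs 0 were called higher and 1 lower, where 5.46% and 6.81% were. CDH1 (E-cadherin) was at 489 ± 16.8 CPM in control, 592 ± 45.9 in A333fs, 568 ± 54.4 in Splice del and 465 ± 33.2 in C321fs. Its log2 fold change of 0.27 in A333fs had an adjusted p of 0.00481 and stayed under 1.5-fold, with 0.21 in Splice del (adjusted p = 0.0228) and -0.07 in C321fs (adjusted p = 0.423). PVRL3 (nectin) was called higher in C321fs (0.62; adjusted p = 0.00633), a call lost without control replicate 1 (0.53) or 2 (0.46) and without C321fs replicate 2 (0.62) or 3 (0.59), and at 0.35 with the trend removed (adjusted p = 0.0566). PVRL1, another nectin, was called lower in A333fs (-0.79; adjusted p = 6.74e-08) and was -0.48 with the GC and length trend removed. It was also lower in Splice del (-0.49, adjusted p = 6.92e-06) and C321fs (-0.30, adjusted p = 7.01e-04), each under the fold limit.

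Over the 12 libraries, the gene whose log2 CPM was most like that of CLDN1 was SATB1 with a Pearson correlation of 0.98, followed by BFSP1 and SLC35F6, both at 0.98. For CGN the closest were TAF4 (0.99), NUP210 (0.98) and SETD1A (0.98), and for TJP3 STXBP2, ARHGAP1 and DDR1 (each 0.99). CD151, CDIPT and CYHR1 (each 0.98) were closest to CLDN3, and ACADS (0.97), KDELR1 (0.97) and LYPD3 (0.95) to CLDN4. CLDN7 had VWA1 (0.96), CLDN3 (0.95) and SERTAD1 (0.95). The closest genes were PDCD6IP, AP2B1 and VPRBP for TJP1 (0.96 to 0.98), SPPL3, PTTG1IP and NSDHL for F11R (0.90 to 0.94), and ANKRD27, PCNA and GTF2H3 for OCLN (0.91 to 0.92). With 4 lines behind the 12 libraries these correlations describe the pattern over lines, and they share the composition trend given above.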

How the data were processed

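Counts from RNA-seq of 12 T47D libraries were used, 3 for each line. ChIP-seq samples of the series were not analysed here. Reads had been trimmed by the authors with Trimmomatic and aligned to hg38 (the submitters' processing notes name HISAT2, while the header of the table names a folder for STAR), and properly paired fragments had been assigned to genes by featureCounts 1.6.4 without regard to strand. The deposited values are whole-number counts that are neither normalized nor pooled. By the default of the counting, fragments that map to several places or several genes are left out, so exons shared with another gene lose counts. Exon coordinates deposited with the counts, once merged, gave the exon lengths deposited beside them, a check within the deposit and not against a separate annotation.

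Genes were filtered with filterByExpr by line, which left 14789 of 26485. After TMM scaling, edgeR 4.0.16 (glmQLFit, glmQLFTest; R 4.3.3) was run with 1 coefficient per line. Benjamini-Hochberg adjustment was over all tested genes, with limits of 0.01 on the adjusted p and 1.5 on the fold change. SE was taken as the log2 fold change divided by the root of F. Libraries held 27872208 to 36788024 counted fragments, and the common dispersion was 0.00453. Trends over GC content and exon length were removed per library with loess (span 0.3) as offsets in the edgeR fit. The fit was tested on simulated data. The members and the gene lists were chosen with earlier results of these data known. The rule for named genes was all 9 members, the genes of 3 junction lists called against control in at least 1 line (at most 4 per list and line), at most 3 called adherens junction genes per line and CDH1, the 3 genes most correlated with each member (log2 CPM, prior count 2), and GATA3. Values of CLDN12 are given outside this rule. Marker lists of 5 cell types were summed. Alternatives were other scalings and filters, DESeq2 1.42.0, other limits, fits of 2 lines alone, the replicate number as a block, removal of the trend, and leaving out each library.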

Additional observations from a re-analysis of the deposited data

Results flagged for a closer look

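Between mutant lines, 6 named genes differed in their change against control, by edgeR's quasi-likelihood test of the difference itself. All but CLDN1 had been named because they were called against control in these same libraries, which favours such differences. Of all tested genes, 1.76% were called higher and 0.879% lower for Splice del against C321fs. These shares were 2.47% and 3.08% for A333fs against C321fs, and 1.03% and 1.97% for A333fs against Splice del. CLDN1 differed by 0.70 on the log2 scale between Splice del and C321fs, by 1.57 between A333fs and C321fs and by 0.88 between A333fs and Splice del. CGNL1 differed by 2.30 between Splice del and C321fs and by 2.11 between A333fs and C321fs. AMOT differed by 1.12 between Splice del and C321fs, and AMOTL1 by 0.74 between A333fs and C321fs. When tested against a fold change of 1.5, neither was called (adjusted p = 0.129 and 0.663), nor was CLDN1 between Splice del and C321fs (adjusted p = 0.501). CLDN5 was lower in A333fs than in C321fs by -1.04, and CLDN15 was lower in A333fs than in Splice del by -0.64. The CLDN5 difference was not called with these lines fitted alone (adjusted p = 0.0105) or when tested against a fold change of 1.5 (adjusted p = 0.175). The CLDN15 difference lost its call after removal of the composition trend (-0.52), when tested against a fold change of 1.5, and without replicate 1 (-0.61) or 3 (-0.55) of Splice del or replicate 2 (-0.56) or 3 (-0.61) of A333fs. In CLDN1 the mutant closest to control was A333fs and in CGNL1 it was C321fs. Each line is 1 pool of infected cells, so the mutant and the pool cannot be told apart.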

How the results depend on the processing

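Each value was recomputed under up to 24 alternatives. CLDN1 kept its direction in all of them, with log2 fold changes of -1.97 to -1.56 in C321fs (adjusted p at most 8.99e-10), -1.27 to -0.85 in Splice del (at most 5.03e-06) and -0.47 to -0.01 in A333fs. It was called in C321fs and Splice del under every alternative and in A333fs under none. With no minimum fold change, 4 members were called in A333fs, 4 in C321fs and 3 in Splice del, and 0 were called for Splice del against C321fs when tested against a fold change of 1.5. Members that differed among the lines numbered 4 in the main fit, where 56.2% of all tested genes did. At an adjusted p below 0.05 they numbered 8, and with 1 library left out 3 to 7, with 7 without C321fs replicate 1. The share of all tested genes was not computed for these settings, so the counts have no background. TJP1 was not among the members that differed without control replicate 2 or 3, Splice del replicate 1 or 2, or C321fs replicate 2.

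Scaling set the sign of several small differences. Under upper-quartile scaling the median over all genes was 0.12 in A333fs and Splice del and 0.11 in C321fs, and the share of calls that were higher went from 44.5%, 57.8% and 67.2% to 73.7%, 79.1% and 86.3%. Library totals alone moved the median to 0.16, 0.22 and 0.19 and the share to 80.2%, 92.2% and 93.2%. After removal of the trend over GC content and length the share was 72%, 75.6% and 76.9%, from 577 higher and 224 lower, 780 and 252, and 527 and 158 genes, against 808 and 1007, 918 and 670, and 684 and 334. Under upper-quartile scaling the sign turned for F11R (0.032), TJP1 (0.056) and AMOTL1 (0.030) in A333fs, for CLDN4 (0.069) and F11R (0.0021) in Splice del and for CLDN15 (0.011) and CDH1 (0.012) in C321fs. With library totals alone it turned for F11R (0.068), TJP1 (0.091) and AMOTL1 (0.066) in A333fs, for CLDN3 (0.0050), CLDN4 (0.17), CLDN7 (0.066) and F11R (0.10) in Splice del and for CLDN3 (0.059), CLDN4 (0.071), CLDN7 (0.053), F11R (0.053), CLDN15 (0.093), CGNL1 (0.080), CDH1 (0.094) and GATA3 (0.0020) in C321fs. After removal of the trend it turned for CLDN3 (0.15), CLDN4 (0.092), CLDN7 (0.0032) and OCLN (-0.15) in A333fs, for CLDN3 (0.14), CLDN4 (0.21), CLDN7 (0.087), OCLN (-0.20) and TJP3 (0.016) in Splice del and for CLDN3 (0.14), CLDN4 (0.089), CLDN7 (0.056), CLDN15 (0.11) and CGNL1 (0.011) in C321fs. The cause was not tested.

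With 1 library left out, values crossed 0 for AMOTL1 (-0.13 to 0.0019) and MAGI2 (-0.017 to 0.28) in A333fs, for CLDN4 (-0.068 to 0.046), OCLN (-0.015 to 0.084) and CLDN15 (-0.075 to 0.14) in Splice del and for CLDN5 (-0.14 to 0.22), CLDN15 (-0.18 to 0.0087) and CGNL1 (-0.24 to 0.19) in C321fs. None of these is a called value. Among single genes 60 values lost a call and 28 gained one. Libraries with the same replicate number did not deviate together (mean correlation -0.0092 over 18 pairs, from -0.12 to 0.17, with 4 of 12 libraries closest to one of their own number). With the replicate block the members called were 0 in A333fs and 1 each in Splice del and C321fs against control and 1 in each pair of mutant lines, and 4 differed among the lines, so it changed no call of a member. CLDN5, MAGI2, JAM2, AMOT and CGNL1 have few counts, so small differences in them are less certain than in the members.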
